A study of Cucurbita moschata with 6 samples.

Results

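The genes of porphyrin and chlorophyll metabolism were described in hypocotyls of pumpkin (Cucurbita moschata) seedlings. The members were all genes whose pathway annotation in the deposited table names KEGG map 00860, 93 of 32205 genes. They carried 34 different enzyme entries of the KEGG orthology (KO) and lay on 19 chromosomes. Poly(A) RNA had been sequenced in 6 stranded libraries, 3 labelled SCK and 3 labelled SR. What the 2 names stand for is not stated. The series text speaks of 1 treatment and 1 control, and SCK was read as the control because CK is a customary sign for a control in agronomy. The labels give a far-red light treatment of 120 s for all 6 samples, so both groups carry it as labelled, and what sets SR apart from SCK is not stated. All seedlings had open cotyledons; days lasted 14 h at 28 °C and nights 10 h at 18 °C. The labels do not say whether replicates were separate plants or pools, so each p-value reflects only the variation among these 6 samples, some of which may be technical.

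Tetrapyrroles are ring-shaped molecules that hold a metal ion or, once opened, act as light-absorbing bilins. Plants make them in the plastid from glutamate along a common path to protoporphyrin IX. There the path forks: insertion of magnesium by magnesium chelatase leads to chlorophyll, and insertion of iron by ferrochelatase leads to heme and, after ring opening, to phytochromobilin, the chromophore of the phytochrome photoreceptors. An earlier side path leads to siroheme, the cofactor of nitrite and sulfite reductases. Chlorophyll is dismantled by a separate set of enzymes that convert chlorophyll b to chlorophyll a, remove magnesium and phytol, and open the ring. In a green or greening hypocotyl the magnesium branch supplies the pigment of the photosystems and their antennae.

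By product name and KO entry, 21 members belonged to the early steps from glutamate to protoporphyrin IX, 3 to siroheme synthesis, 22 to the magnesium branch, 14 to the heme and bilin branch and 15 to chlorophyll breakdown. The other 18 members were mapped to porphyrin metabolism by the annotation but were not counted in a branch; 11 of these had a product name of another protein. A further 6 members stood in a branch by their KO entry alone. Among the early steps, CmoCh10G012720 and CmoCh11G012130 are named cytoplasmic-like glutamate-tRNA ligases rather than plastid ones. They stay in the counts, medians and sums of the early steps below. Of the 93 members, 84 reached an FPKM (fragments scaled by transcript length and by the mapped fragments of the library) of at least 1 in at least 3 libraries and were tested. The 9 members below that limit had mean FPKM values of at most 0.783.

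Counts summed to between 52300725 and 72356397 per library. SCK replicate 3 lay between the other controls for most genes on which those differed. Among the 1596 tested genes whose FPKM differed by at least 2-fold between SCK replicates 1 and 2, SCK replicate 3 lay between them in 1494, and it did so for 3 of 3 such members. Without this library edgeR called 0 genes of the whole table, where 5558 had an unadjusted p under 0.05, DESeq2 called 3607 and limma called 8. Each call below is therefore given with the libraries whose removal ended it.

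The magnesium branch held most of the members that changed. In it 7 of 20 tested genes fell in SR and 0 rose, and the 7 are the H subunit of magnesium chelatase, both genes of the ring cyclase, both of chlorophyllide a oxygenase, and 1 gene each of protochlorophyllide reductase and geranylgeranyl diphosphate reductase. Over all 84 tested members 11 fell and 2 rose at an adjusted p under 0.05 (edgeR's quasi-likelihood test, Benjamini-Hochberg over 23509 genes), beside 7.16% of all tested genes called lower and 7.2% called higher. As shares, 13.1% of the members fell and 2.38% rose, and 35.0% of the magnesium branch fell. Without TMM factors the split of the members' calls was 7 lower and 3 higher (8.33% and 3.57%), beside 4.91% and 11.1% of all tested genes. DESeq2 called 14 members lower and 4 higher, against 12.7% and 13.0% of all tested genes, and without SCK replicate 3 it called 10 lower and 1 higher, against 7.77% and 7.57%. Limma called 6 members lower and 4 higher (7.14% and 4.76%), against 4.63% and 10.1% of all tested genes on log2(FPKM + 1) and 4.49% and 9.82% on log2(FPKM + 0.1). In the raw FPKM values, all 3 SR libraries lay below all 3 SCK libraries for 15 of the 84 members and above them for 22, against 12.7% and 27.9% of all tested genes; the FPKM values do not carry the TMM factors.

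The median log2 change of the tested members was -0.12, beside 0.01 for all tested genes. By branch it was -0.33 in the magnesium branch, -0.38 for the 3 siroheme genes, -0.02 for the early steps, -0.11 for breakdown, -0.05 for the other members and 0.16 for heme and bilins. Without TMM factors the median of all genes shifted to 0.14, that of all members to 0.01, that of the early steps to 0.11, that of breakdown to 0.02 and that of the other members to 0.09, while the magnesium branch stayed below 0 at -0.20 and the heme and bilin branch above 0 at 0.29.

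**Figure D1:**
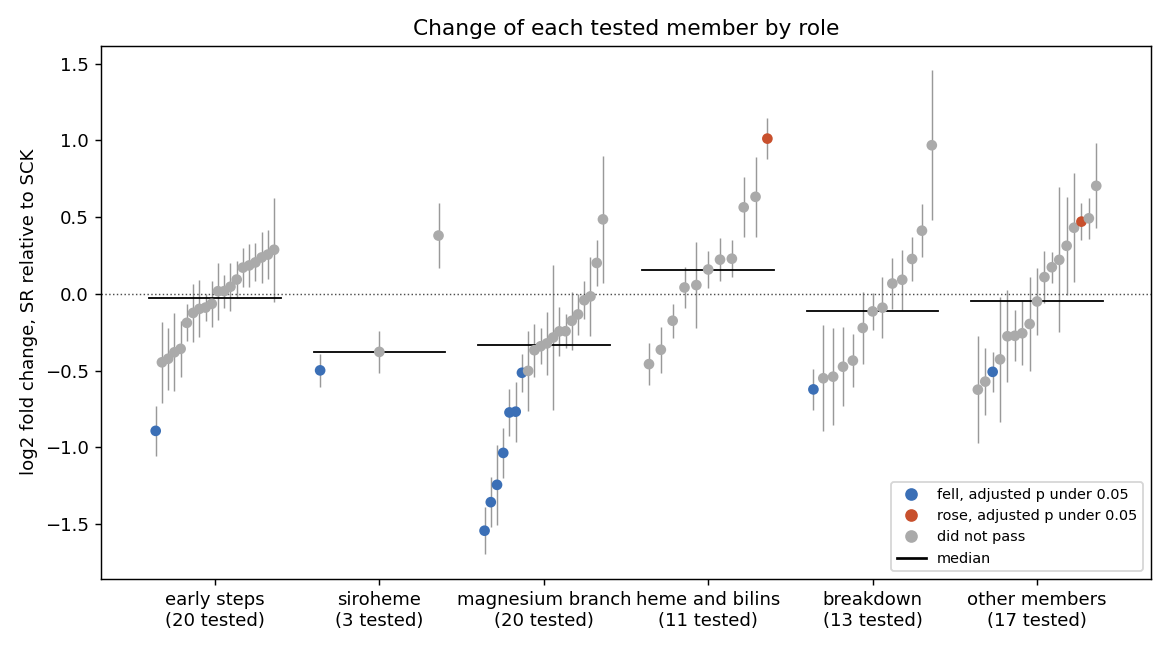
Log2 fold change of SR relative to SCK (vertical axis, edgeR with TMM factors) for each of the 84 tested members, ordered within its role, with bars of 1 SE and a black line at the median of the role. In the magnesium branch 7 of 20 points are marked as fallen, and the single marked point of the heme and bilin branch lies at 1.01.

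In the early steps 1 of 20 tested genes fell (5.0%) and 0 rose, a share below the 7.16% of all tested genes called lower. Aminolevulinic acid dehydratase, which joins 2 molecules of aminolevulinic acid into the first pyrrole, is encoded by a single member, CmoCh04G024790 (chromosome 4, 18285707 to 18292273, minus strand; positions here and below are those of the deposited table, for which the sources used here give no genome build). It was the most abundant gene of the early steps. Its FPKM was 135, 136 and 140 in the SCK libraries and 96.2, 76.4 and 70.0 in the SR libraries. The groups did not overlap, and the 3 control values lay much closer together than the SR values. The log2 change was -0.89 ± 0.16 (SE, n = 3 per group, edgeR adjusted p = 0.0192). The call ended without SCK replicate 3 (edgeR adjusted p = 0.0911) and without SR replicate 3 (edgeR adjusted p = 0.0706).

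None of the other 19 tested genes of the early steps passed. Glutamyl-tRNA reductase, the main control point of the path, had 1 abundant gene, CmoCh05G005930, at 41.0, 56.8 and 51.9 FPKM in SCK and 52.8, 26.9 and 39.6 in SR. The groups overlapped, with SR replicate 1 above 2 of the 3 controls (log2 change -0.45 ± 0.26, edgeR adjusted p = 0.283). This gene overlaps CmoCh05G005920, an uncharacterized gene on the opposite strand, by 368 bp. That neighbour stood at 11.99, 19.2 and 15.4 FPKM in SCK and 60.5, 20.0 and 33.8 in SR, so the SR libraries kept the same order in both genes. The sources used here do not say whether counting used strand, and the neighbour's part in these values was not tested.

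No other early enzyme had a gene that passed. The most abundant copies were CmoCh19G008350 for glutamate-tRNA ligase (22.9 ± 1.05 in SCK and 23.7 ± 0.76 in SR, mean ± SD, n = 3), CmoCh11G014440 for glutamate-1-semialdehyde aminomutase (29.4 ± 5.31 and 38.3 ± 4.91) and CmoCh01G002560 for porphobilinogen deaminase (31.6 ± 5.30 and 41.7 ± 4.85). The aminomutase makes aminolevulinic acid and the deaminase links 4 pyrroles into a chain. For uroporphyrinogen-III synthase, which closes the ring, CmoCh05G002040 stood at 16.0 ± 1.01 FPKM in SCK and 16.0 ± 3.33 in SR. For uroporphyrinogen decarboxylase CmoCh16G004760 stood at 36.2 ± 10.4 and 30.9 ± 7.25. Coproporphyrinogen-III oxidase, with the single gene CmoCh16G005420, stood at 32.1 ± 1.34 and 37.5 ± 3.96, and the most abundant protoporphyrinogen oxidase gene, CmoCh15G001010, at 32.6 ± 6.76 and 40.6 ± 1.06. None of these genes passed, their edgeR adjusted p-values running from 0.305 for CmoCh01G002560 to 0.690 for CmoCh05G002040.

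**Figure D2:**
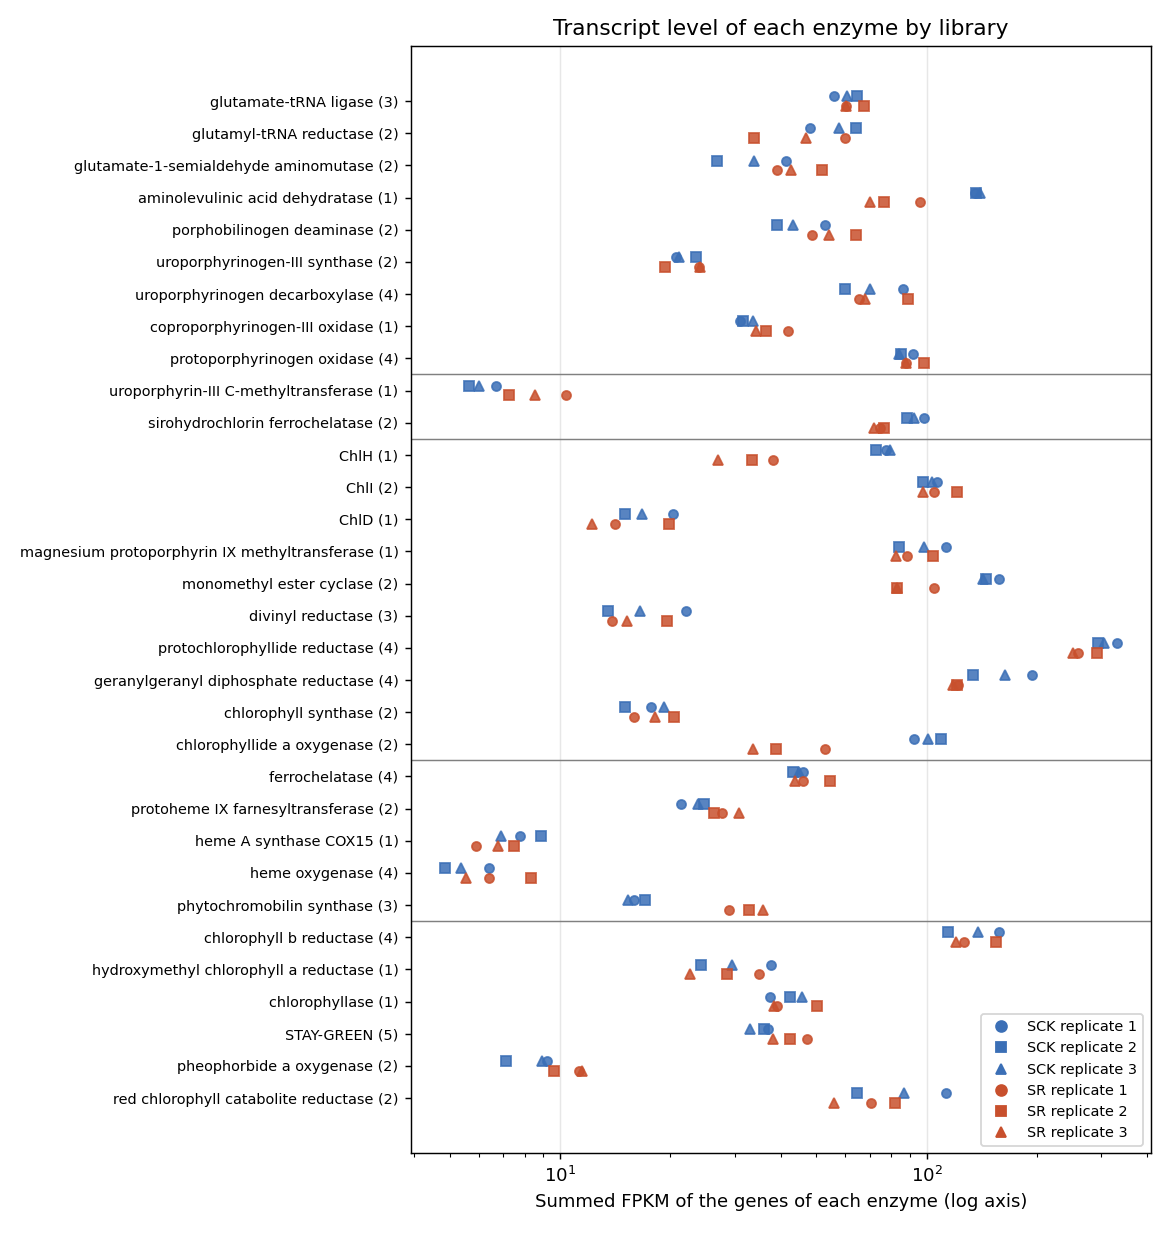
FPKM summed over the genes of each enzyme (horizontal log axis) in each of the 6 libraries, with the number of genes in brackets; rules divide the early steps, siroheme synthesis, the magnesium branch, the heme and bilin branch and breakdown. ChlH and chlorophyllide a oxygenase stand farthest to the left in SR relative to SCK, at 0.429 and 0.415 of the SCK mean, and the phytochromobilin synthase entry stands to the right, at 2.02 times the SCK mean.

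Of the 3 siroheme genes 1 fell (33.3%, beside 7.16% of all tested genes called lower), and 3 genes are too few to read as a branch result. The gene that fell is a sirohydrochlorin ferrochelatase, the enzyme that inserts iron to complete siroheme. CmoCh15G003630 (chromosome 15, 1692834 to 1695080, minus strand) stood at 71.35, 63.5 and 65.5 FPKM in SCK and 50.2, 57.0 and 49.1 in SR, with no overlap between the groups. Its log2 change was -0.50 ± 0.11 (SE, n = 3 per group, edgeR adjusted p = 0.0303), and the call ended in each of the 6 fits that left out 1 library, with edgeR adjusted p-values of 0.0515 to 0.111, and without TMM factors (0.0617). Limma on log2(FPKM + 1) did not call this gene either (adjusted p = 0.0699). The second copy, CmoCh04G028220, was also lower in every SR library, at 26.5 ± 1.16 FPKM in SCK and 22.4 ± 2.45 in SR, and did not pass (edgeR adjusted p = 0.106). The ratio of the copies differed between the groups by -0.11 on the log2 scale (exact two-sided permutation p = 0.5). The gene with the KO entry of uroporphyrin-III C-methyltransferase, CmoCh17G009060, whose product is uncharacterized, stood at 6.12 ± 0.55 FPKM in SCK and 8.73 ± 1.57 in SR (log2 change 0.38 ± 0.21, edgeR adjusted p = 0.251).

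Magnesium chelatase has 3 subunits, of which H binds protoporphyrin IX and I and D form the motor that drives the insertion. The H subunit gene fell to 0.429 of its mean control FPKM. CmoCh03G000620, the only ChlH member (chromosome 3, 1032156 to 1035763, plus strand), stood at 77.5, 72.8 and 79.7 FPKM in SCK and 38.2, 33.4 and 26.95 in SR. The highest SR library was far below the lowest control. The log2 change was -1.36 ± 0.16 (SE, n = 3 per group, edgeR adjusted p = 0.0117), and the call ended without SCK replicate 3 (edgeR adjusted p = 0.0749).

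The other chelatase subunits did not pass. The abundant ChlI gene, CmoCh03G013080, stood at 98.0, 88.5 and 94.6 FPKM in SCK and 97.7, 114 and 89.95 in SR, with overlapping groups (log2 change -0.04 ± 0.12, edgeR adjusted p = 0.850). The minor ChlI gene, CmoCh07G002000, was lower in every SR library, at 8.82 ± 0.21 against 7.66 ± 0.32 FPKM, and was called by DESeq2 (adjusted p = 0.0213) but not by edgeR (adjusted p = 0.0928). The ChlD member, CmoCh20G001040, placed by its KO entry alone, stood at 17.4 ± 2.72 and 15.4 ± 3.93 FPKM (edgeR adjusted p = 0.310). Within each library the log2 ratio of ChlH to the summed ChlI genes was -0.42 ± 0.04 in SCK and -1.73 ± 0.23 in SR (SD, n = 3), a difference of -1.31. The ratio of ChlH to ChlD differed by -1.04. In both ratios every SR library lay below every SCK library, at an exact two-sided permutation p of 0.1, the smallest that 3 against 3 can give.

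The steps between magnesium insertion and protochlorophyllide held both cyclase genes among those that fell. Magnesium protoporphyrin IX methyltransferase, the enzyme before the cyclase, has the single gene CmoCh10G000100, which stood at 113, 83.9 and 98.2 FPKM in SCK and 88.6, 104 and 82.65 in SR, with overlapping groups (edgeR adjusted p = 0.331). The monomethyl ester cyclase forms the fifth ring of chlorophyll. Its major gene, CmoCh07G011760 (chromosome 7, 6316893 to 6320387, minus strand), stood at 107, 99.2 and 97.5 FPKM in SCK and 75.6, 61.9 and 57.7 in SR. Its minor gene, CmoCh03G002120 (chromosome 3, 3411393 to 3414459, minus strand), stood at 50.2, 46.3 and 45.2 and at 29.2, 21.05 and 25.4. Neither gene had overlapping groups.

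The cyclase genes fell by 0.77 ± 0.15 (CmoCh07G011760, edgeR adjusted p = 0.0243) and 1.04 ± 0.16 (CmoCh03G002120, edgeR adjusted p = 0.0154) on the log2 scale. In SCK the minor gene supplied 31.7 to 31.9% of the summed cyclase FPKM, a narrow range, and in SR 25.4 to 30.6%. The log2 ratio of major to minor gene differed by 0.25 between the groups (exact two-sided permutation p = 0.1, Benjamini-Hochberg adjusted 0.318 over 35 pairs of copies). For divinyl reductase, which saturates a side chain, CmoCh14G016860 and CmoCh06G014650 stood at 7.24 ± 2.08 and 7.61 ± 1.67 FPKM in SCK and at 7.96 ± 1.82 and 5.94 ± 0.61 in SR, and neither passed (edgeR adjusted p = 0.973 and 0.225). CmoCh06G014660, which carries the same KO entry with no product name and lies 87 bp from CmoCh06G014650 on the same strand, also did not pass (edgeR adjusted p = 0.715).

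Protochlorophyllide reductase, the light-driven step of flowering plants, had the highest summed level of any enzyme in the map. CmoCh09G008690 (chromosome 9, 4481952 to 4485878, minus strand), the most abundant member of the magnesium branch, stood at 152, 137.5 and 143 FPKM in SCK and 106, 121.5 and 106 in SR. The groups did not overlap and the log2 change was small, -0.51 ± 0.13 (SE, n = 3 per group, edgeR adjusted p = 0.0393). The second abundant copy, CmoCh01G012510, stood at 134, 125 and 128 in SCK and 113.5, 132 and 115 in SR, with SR replicate 2 inside the control range (log2 change -0.24 ± 0.11, edgeR adjusted p = 0.180). The third, CmoCh20G002080, stood at 35.99 ± 6.98 and 35.2 ± 4.73 FPKM (edgeR adjusted p = 0.559). The log2 ratio of the first to the second copy was 0.16 ± 0.02 in SCK and -0.11 ± 0.01 in SR (SD, n = 3), a difference of -0.27 with groups that did not overlap. The exact two-sided permutation p was 0.1 (adjusted 0.318 over the 35 pairs), and since 0.1 is the smallest that 3 against 3 can give, no pair of copies could pass this test. Other pairs also had separate groups and the same p, among them the ChlI genes and the porphobilinogen deaminase genes.

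Geranylgeranyl diphosphate reductase makes the phytyl tail, also used for tocopherol. CmoCh11G001680 (chromosome 11, 823871 to 825700, minus strand), the major copy, stood at 161, 101.5 and 127 FPKM in SCK and 83.6, 89.7 and 79.7 in SR. The controls spread widely, yet every SR library was below every control. Its log2 change was -0.77 ± 0.20 (SE, n = 3 per group, edgeR adjusted p = 0.0452). CmoCh10G002090 went the other way in FPKM, at 17.9 ± 2.16 in SCK and 22.6 ± 2.24 in SR, and did not pass (log2 change 0.20 ± 0.15, edgeR adjusted p = 0.389). The major copy supplied 76.0 to 83.1% of the summed FPKM in SCK and 67.7 to 73.9% in SR, and its log2 ratio to CmoCh10G002090 differed by -0.92, at the same smallest possible p of 0.1 (adjusted 0.318). CmoCh20G000110 stood at 15.8 ± 1.53 and 13.4 ± 2.78 FPKM (edgeR adjusted p = 0.186). Chlorophyll synthase, which attaches the tail, had its abundant gene CmoCh07G011100 at 16.0 ± 1.79 and 16.1 ± 1.52 FPKM (edgeR adjusted p = 0.525).

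Chlorophyllide a oxygenase, which makes chlorophyll b for the antennae, had the lowest ratio of SR to SCK among the enzymes summed here. CmoCh15G006900 (chromosome 15, 3366944 to 3369605, minus strand) stood at 52.3, 56.7 and 53.15 FPKM in SCK and 23.0, 21.9 and 16.2 in SR. CmoCh04G024720 (chromosome 4, 18260815 to 18264056, plus strand) stood at 39.9, 52.6 and 47.5 in SCK and 30.0, 16.9 and 17.3 in SR. Both genes had separate groups, and SR replicate 1 was the highest SR library in each. The log2 changes were -1.54 ± 0.15 (CmoCh15G006900, edgeR adjusted p = 0.00968) and -1.24 ± 0.26 (CmoCh04G024720, edgeR adjusted p = 0.0268). The ratio of the copies differed by -0.25 on the log2 scale (exact two-sided permutation p = 0.3). CmoCh04G024720 lies on the same chromosome as the aminolevulinic acid dehydratase gene described above, which spans from 18285707. They are not among the neighbouring pairs of members given below.

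**Figure D3:**
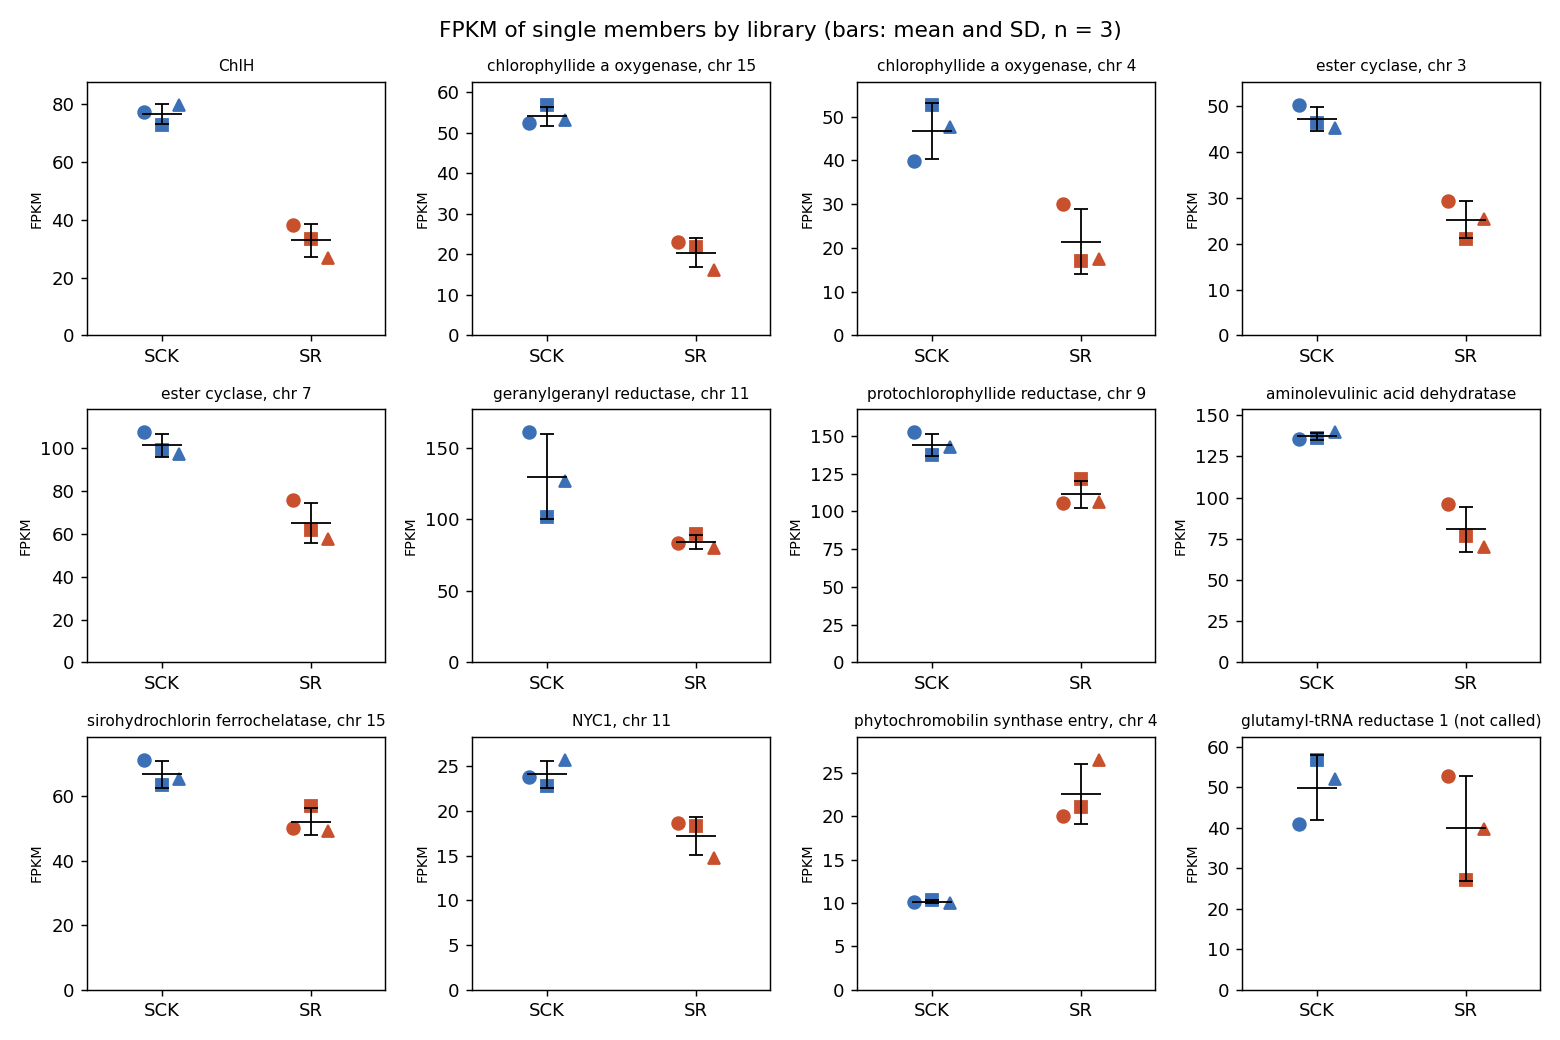
FPKM (vertical axis, from 0) of 12 members in the 3 SCK and 3 SR libraries, with circles, squares and triangles for replicates 1, 2 and 3 and black bars for the mean and SD (n = 3). ChlH, both chlorophyllide a oxygenase genes and both ester cyclase genes have all SR points below all SCK points, the phytochromobilin synthase entry on chromosome 4 has all SR points above, and glutamyl-tRNA reductase 1 has overlapping groups.

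The calls of the magnesium branch depended on single libraries to different degrees. Without SCK replicate 3 none of the 7 was called by edgeR, with adjusted p-values from 0.0749 for ChlH and CmoCh15G006900 to 0.1396 for CmoCh09G008690, while all 7 kept their negative change. DESeq2 called all 7 without that library (added after seeing the data), beside 7.77% of all tested genes called lower. CmoCh03G002120 also lost its call without SR replicate 3 (0.0622). CmoCh04G024720 and CmoCh07G011760 kept theirs only without SR replicate 1 (0.00698 and 0.0125), the other 5 fits giving 0.0515 to 0.101 and 0.0531 to 0.0939. CmoCh11G001680 kept its call only without SCK replicate 2 (0.0391), the others giving 0.0696 to 0.142, and CmoCh09G008690 lost its call in all 6 fits (0.0618 to 0.1396). Both of these were also lost without TMM factors (0.0582 and 0.0800) and by limma on log2(FPKM + 1) (0.0645 and 0.0676).

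Counted over the branch, 3 of 20 genes fell by edgeR without SCK replicate 1, beside 3.57% of all tested genes, and 4 without SCK replicate 2, beside 3.98%. Without SCK replicate 3 there were 0, beside 0.0% of all tested genes. Leaving out SR replicate 1, 2 or 3 gave 5, 3 and 2 falls, beside 6.84%, 4.53% and 1.23% of all tested genes.

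In the heme and bilin branch 1 of 11 tested genes rose (9.09%, beside 7.2% of all tested genes called higher) and 0 fell. CmoCh04G015390 (chromosome 4, 7875109 to 7878961, plus strand) carries the KO entry of phytochromobilin synthase, the enzyme that reduces biliverdin to the phytochrome chromophore, and its product is uncharacterized. It stood at 10.15, 10.3 and 9.99 FPKM in SCK and at 20.1, 21.0 and 26.5 in SR, so every SR library was well above controls that hardly differed from each other. The log2 change was 1.01 ± 0.13 (SE, n = 3 per group, edgeR adjusted p = 0.0119), and the call ended without SCK replicate 3 (edgeR adjusted p = 0.0764).

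The other genes with that entry were also higher in every SR library without passing. In FPKM, 27.9% of all tested genes were higher in every SR library than in every SCK library. CmoCh10G009490, whose product name is that of the enzyme, phytochromobilin:ferredoxin oxidoreductase, stood at 3.47, 2.93 and 3.31 FPKM in SCK and 4.825, 6.40 and 4.63 in SR (log2 change 0.56 ± 0.19, edgeR adjusted p = 0.0944, DESeq2 adjusted p = 0.0433). CmoCh18G009850, uncharacterized, stood at 2.32, 3.80 and 2.03 in SCK and 3.93, 5.42 and 4.55 in SR (log2 change 0.63 ± 0.26, edgeR adjusted p = 0.1397). The only gene of the 3 that carries the enzyme's own name is thus one that did not pass by edgeR. Summed over the 3 genes the FPKM was 15.9, 17.1 and 15.3 in SCK and 28.8, 32.85 and 35.7 in SR.

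Ferrochelatase, the enzyme at the fork toward heme, had 2 genes at similar levels. CmoCh02G006720, the most abundant member of the branch, stood at 19.5, 19.7 and 18.7 FPKM in SCK and 22.8, 27.7 and 20.7 in SR (log2 change 0.16 ± 0.12, edgeR adjusted p = 0.391), above the controls in each SR library. CmoCh05G001100 stood at 20.1 ± 1.41 and 19.6 ± 1.63 (edgeR adjusted p = 0.309). The minor gene CmoCh12G005710 was lower in every SR library, at 5.33, 5.06 and 5.47 FPKM in SCK and 4.28, 4.23 and 4.19 in SR. It missed the threshold by edgeR (log2 change -0.46 ± 0.14, adjusted p = 0.0693) and passed by DESeq2 (adjusted p = 0.0108). The remaining gene, CmoCh20G003140, was at a count of 0 in all SCK libraries and at counts of 8, 50 and 8 in SR, below the limit for testing.

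Genes further along the heme path did not pass. Protoheme IX farnesyltransferase and the COX15 protein, which together make heme A for mitochondrial cytochrome oxidase, were represented by CmoCh14G020050 (12.8 ± 1.43 FPKM in SCK and 16.4 ± 0.96 in SR, edgeR adjusted p = 0.228), CmoCh06G012020 (10.5 ± 0.54 and 11.8 ± 1.48, 0.859) and CmoCh16G004620 (7.84 ± 0.97 and 6.71 ± 0.80, 0.143). Heme oxygenase, which opens heme to biliverdin, was low, its named gene CmoCh10G005910 standing at 3.24 ± 0.58 and 3.74 ± 1.22 FPKM (edgeR adjusted p = 0.909). CmoCh09G002070, with the same entry by KO alone, stood at 1.92 ± 0.14 and 2.47 ± 0.09 (edgeR adjusted p = 0.314). The probable inactive heme oxygenase genes CmoCh01G019160 and CmoCh01G019170 were not tested.

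The balance of the branches within each library was compared through ratios of summed FPKM, which are free of the scaling between libraries. The magnesium branch summed to 1131, 979 and 1046 FPKM in SCK and 814, 854 and 739 in SR, and the heme and bilin branch to 97.4, 98.65 and 96.2 and to 115, 129.5 and 123. The early steps summed to 563, 531 and 544 and to 523, 536.5 and 488. The log2 ratio of the magnesium to the heme and bilin branch was 3.43 ± 0.11 in SCK and 2.71 ± 0.12 in SR (SD, n = 3), a difference of -0.72. The enzymes of the heme and bilin branch did not change evenly. Mean summed FPKM in SCK and SR was 16.1 and 32.5 for the phytochromobilin synthase entry and 44.7 and 48.1 for ferrochelatase. It was 23.2 and 28.2 for the farnesyltransferase, 5.55 and 6.76 for heme oxygenase and 7.84 and 6.71 for COX15. The ratio of ChlH to the ferrochelatase genes, the enzymes that compete for protoporphyrin IX, went from 0.78 ± 0.04 to -0.56 ± 0.25, a difference of -1.34, with ChlH above ferrochelatase in all SCK libraries and below it in all SR libraries. The ratio of the magnesium branch to the early steps differed by -0.31. All 7 ratios computed had groups that did not overlap and an exact two-sided permutation p of 0.1. That is the smallest this design allows and stays 0.1 after Benjamini-Hochberg adjustment, so none could reach 0.05. Each ratio holds ChlH, chlorophyllide a oxygenase or the sum of the magnesium branch, all of which include genes called above. The ratios are therefore not independent of each other or of those calls, and add no separate evidence.

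**Figure D4:**
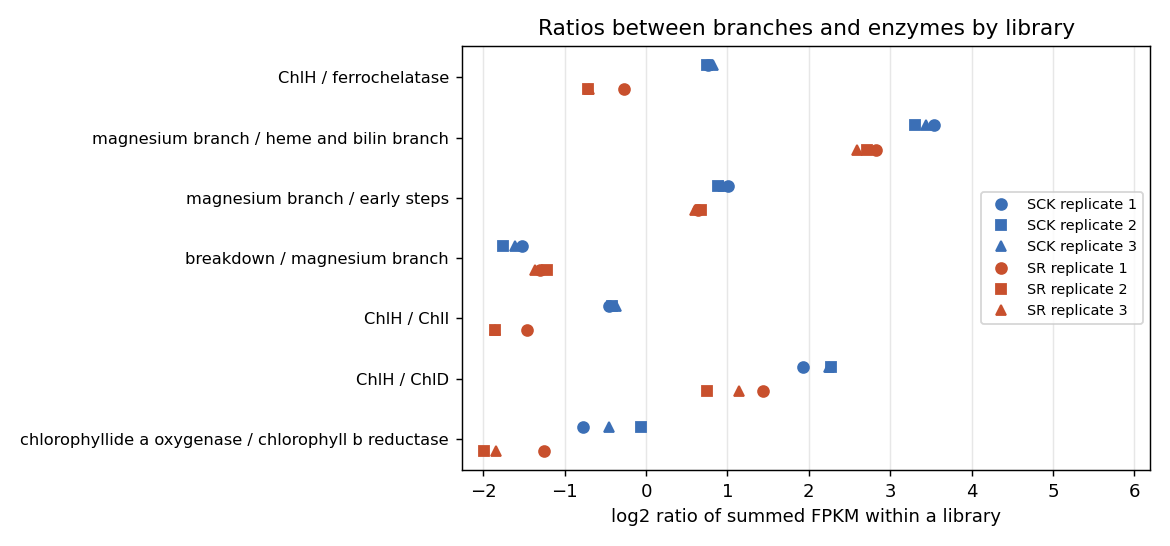
Log2 ratio of summed FPKM within a library (horizontal axis) for 7 pairs of branches or enzymes, with SCK and SR libraries as points. For each ratio the 3 SR points lie on one side of the 3 SCK points, and ChlH over ferrochelatase moves from 0.78 to -0.56 on average.

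In chlorophyll breakdown 1 of 13 tested genes fell (7.69%) and 0 rose, a share near the 7.16% of all tested genes called lower. It is a minor copy of the first enzyme. Chlorophyll b reductase begins the return of chlorophyll b to chlorophyll a. CmoCh11G006180 (chromosome 11, 2953975 to 2956177, plus strand), named NYC1, stood at 23.8, 22.8 and 25.75 FPKM in SCK and 18.65, 18.3 and 14.7 in SR, without overlap. Its log2 change was -0.62 ± 0.13 (SE, n = 3 per group, edgeR adjusted p = 0.0291). The call held only without SR replicate 1 among the fits that left out 1 library (0.0264), the other 5 giving edgeR adjusted p-values of 0.0535 to 0.123, and limma on log2(FPKM + 1) gave 0.0505.

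The other chlorophyll b reductase genes did not pass. The major NYC1 gene, CmoCh10G006560, was the most abundant member of breakdown, at 127, 82.2 and 105 FPKM in SCK and 99.65, 127 and 99.5 in SR, a range that covers the same levels in both groups (log2 change -0.09 ± 0.20, edgeR adjusted p = 0.792). CmoCh11G006170, named NYC1 as well and ending 40 bp before CmoCh11G006180 on the same strand, stood at 4.003 ± 1.23 and 2.99 ± 1.05 FPKM (edgeR adjusted p = 0.308). CmoCh15G005450, named NOL, stood at 4.11 ± 0.28 and 4.82 ± 0.43 (edgeR adjusted p = 0.781). The log2 ratio of chlorophyllide a oxygenase to chlorophyll b reductase, the enzymes that make and remove chlorophyll b, was -0.43 ± 0.36 in SCK and -1.70 ± 0.39 in SR (SD, n = 3), a difference of -1.27 at the exact two-sided permutation p of 0.1 given above.

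Later breakdown enzymes stayed without a call by edgeR. STAY-GREEN, which removes magnesium from chlorophyll a, had its main gene CmoCh02G015360 at 18.4 ± 0.27 FPKM in SCK and 23.6 ± 2.72 in SR (edgeR adjusted p = 0.321). The neighbouring copy CmoCh02G015350, at 8.31 ± 1.22 and 12.1 ± 0.53, was called by limma on log2(FPKM + 1) (adjusted p = 0.0478) and not by edgeR (adjusted p = 0.147). CmoCh15G006510, named STAY-GREEN LIKE, stood at 8.40 ± 1.81 and 6.67 ± 1.65 (edgeR adjusted p = 0.247). Chlorophyllase, CmoCh17G002040, which cuts off phytol, stood at 41.9 ± 4.28 and 42.6 ± 6.57, and hydroxymethyl chlorophyll a reductase, CmoCh14G019040, at 30.4 ± 6.75 and 28.7 ± 6.14 FPKM.

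Ring opening and the step after it showed no call either. Pheophorbide a oxygenase, the ring-opening enzyme, had CmoCh13G002690 at 7.42 ± 0.70 FPKM in SCK and 8.55 ± 0.97 in SR (edgeR adjusted p = 0.812). CmoCh13G002670, which overlaps it on the opposite strand by 696 bp, stood at 1.079, 0.383 and 1.59 in SCK and 2.36, 2.20 and 2.16 in SR (log2 change 0.97 ± 0.49, edgeR adjusted p = 0.215). The red chlorophyll catabolite reductase genes CmoCh02G005530 and CmoCh02G005540, which overlap each other on opposite strands by 964 bp, stood at 39.4 ± 6.46 and 48.8 ± 18.4 FPKM in SCK and at 32.1 ± 3.68 and 37.4 ± 10.3 in SR (edgeR adjusted p = 0.130 and 0.278). In all, 20 members overlap another gene in position, always on the opposite strand, and 0 of the called members do. Where reads of such a pair were counted without strand, they could not be told apart.

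Of the 18 other members, 17 were tested, 1 rose and 1 fell (5.88% each), shares below the 7.2% and 7.16% of all tested genes. CmoCh04G026170 (chromosome 4, 19073153 to 19077735, minus strand) carries the KO entry of NYC1 but is named a hepatoma-derived growth factor-related protein. It stood at 14.3, 16.05 and 15.4 FPKM in SCK and 24.2, 25.7 and 19.8 in SR (log2 change 0.47 ± 0.12, edgeR adjusted p = 0.0463). CmoCh01G008760 (chromosome 1, 4759147 to 4761848, plus strand), a putative methylesterase 12, stood at 15.1, 12.7 and 13.9 in SCK and 10.2, 12.1 and 9.98 in SR (log2 change -0.51 ± 0.13, edgeR adjusted p = 0.0474). Both had separate groups, and both calls ended in each of the 6 fits that left out 1 library (edgeR adjusted p from 0.0592 to 0.159 and from 0.0608 to 0.1503) and without an FPKM limit (0.0600 and 0.0532). CmoCh01G008760 also lost its call without TMM factors (edgeR adjusted p = 0.0969) and by limma on log2(FPKM + 1) (adjusted p = 0.109). CmoCh04G026170 kept its call in both (0.0269 and 0.0337).

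A frataxin gene, CmoCh02G001370, stood just outside the threshold. Frataxin is a mitochondrial protein of iron handling. It stood at 12.9, 17.2 and 15.7 FPKM in SCK and 24.2, 23.05 and 23.3 in SR (log2 change 0.49 ± 0.13, edgeR adjusted p = 0.0520). DESeq2 (0.0122), limma on log2(FPKM + 1) (0.0298) and edgeR without TMM factors (0.0319) called it. The most abundant of these members, CmoCh10G010570, named protochlorophyllide-dependent translocon component 52, spread over 97.05, 49.4 and 70.25 FPKM in SCK and 49.9, 88.8 and 60.9 in SR (edgeR adjusted p = 0.559).

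Genes that act on the path but stand outside the KEGG map were described from their product names. Of 16 such genes 13 were tested, 1 fell (7.69%, near the 7.16% of all tested genes called lower) and 0 rose, and the median log2 change was -0.17 (-0.04 without TMM factors). CmoCh20G006590 (chromosome 20, 3221441 to 3225338, plus strand) is named a GLK1-like transcription activator; in Arabidopsis GLK factors switch on chlorophyll and antenna genes. It stood at 3.61, 4.96 and 5.01 FPKM in SCK and 1.61, 2.07 and 1.14 in SR, with no overlap (log2 change -1.63 ± 0.26, SE, n = 3 per group, edgeR adjusted p = 0.0150). The call ended without SCK replicate 3 (edgeR adjusted p = 0.0837), and the gene was not tested at an FPKM limit of 5. The second GLK1-like gene, CmoCh02G002070, was below the limit for testing, at 0.874, 0.272 and 0.531 FPKM in SCK and 0.081 in SR replicate 2, with a count of 0 in the other SR libraries.

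The post-translational regulators of the path did not pass. The most abundant copies were CmoCh07G012120 for the glutamyl-tRNA reductase-binding protein (21.4 ± 3.15 FPKM in SCK and 25.4 ± 4.13 in SR), CmoCh01G000130 for FLUORESCENT IN BLUE LIGHT, a brake on aminolevulinic acid synthesis (22.4 ± 3.09 and 20.5 ± 0.92), and CmoCh16G011530 for light-harvesting complex-like protein 3 (40.8 ± 12.65 and 51.4 ± 6.19). A tetrapyrrole-binding protein gene, CmoCh08G002080, of the kind known as GUN4, which assists ChlH, stood at 61.1 ± 8.31 and 61.0 ± 13.7. Their edgeR adjusted p-values were 0.708, 0.269, 0.629 and 0.704. Of 5 pheophytinase genes, which remove phytol, CmoCh17G009530 stood at 14.6 ± 0.56 and 11.3 ± 2.02 and was called by DESeq2 (adjusted p = 0.0269) but not by edgeR (adjusted p = 0.0673). CmoCh16G006640, another of them, stood at 6.52 ± 1.02 and 4.48 ± 0.42 and likewise passed by DESeq2 (adjusted p = 0.0146) and not by edgeR (adjusted p = 0.0661). CmoCh01G009370, CmoCh04G007980 and CmoCh02G012040 passed by neither. Their log2 changes were -0.52, -0.30 and 0.11 (edgeR adjusted p = 0.206, 0.364 and 0.823). DESeq2 called 12.7% of all tested genes lower.

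Markers of other tissues and of chloroplast content were read beside these results. Chlorophyll a-b binding proteins, the antenna proteins, fell by edgeR in 10 of 24 tested genes and rose in 0. Of all tested genes 7.16% were called lower and 7.2% higher. The summed FPKM of the antenna proteins was 7688, 6532 and 6998 in SCK and 5803, 4189 and 4850 in SR. The Rubisco small chain summed to 8496, 3222 and 5317 in SCK and 4032, 3749 and 3260 in SR, with overlapping groups and 0 of 2 genes called. Glyoxysomal isocitrate lyase and malate synthase, which mark seed lipid use in cotyledons, summed to 32.6 to 41.2 FPKM in SCK and 18.7 to 26.6 in SR. Here 1 of 2 tested genes was called lower, a single call in a short list, beside the same 7.16% of all tested genes.

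Of 11 YABBY genes, which mark leaf-like organs, only 1 could be tested and 0 were called, with 3 at a count of 0 in all libraries and sums of 3.39 to 7.44 FPKM in SCK and 2.52 to 11.2 in SR. None of 4 root marker genes could be tested, and their sums were 0.821 to 1.29 and 1.04 to 1.39 FPKM. The 3 shoot apex genes summed to 13.2 to 13.85 FPKM in SCK and 15.7 to 17.15 in SR, with 1 tested and 0 called. The 3 vascular genes summed to 2680 to 2936 and 2139 to 4176, with 2 tested and 0 called. Storage proteins and oleosins of the seed, 20 genes, summed to 25.8 to 34.1 FPKM in SCK and 30.8 to 38.8 in SR. Of these 7 were tested, 1 was higher and 0 were lower, beside 7.2% and 7.16% of all tested genes. No single gene defines the hypocotyl, so its label was not checked by a positive marker. The part of tissue or chloroplast content in the falls of the magnesium branch was not tested, and in whole hypocotyls fewer green cells and less RNA per cell cannot be told apart.

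Some members lay close together in the genome, and the rate of such pairs among all genes was not measured. There were 11 pairs of members that overlapped, lay side by side or had 1 gene between them, holding 21 members. Several of these pairs are genes that overlap on opposite strands, and some include a gene that was not tested. Both genes of every pair carried the same KO entry, also CmoCh20G002070, which is named an ethylene-responsive transcription factor. Members were chosen by pathway annotation, so the shared entries are not independent of the selection. In 1 pair, the NYC1 genes on chromosome 11, a gene fell beside a neighbour that was not called. The called members had counts between 1195 and 25663 per library. The members not tested were CmoCh04G011430 among the early steps, CmoCh20G000120 and CmoCh20G002090 in the magnesium branch, CmoCh01G019160, CmoCh01G019170 and CmoCh20G003140 in the heme and bilin branch, CmoCh04G025230 and CmoCh15G006520 in breakdown, and CmoCh20G002070 among the others. A count of 0 in every library was found for CmoCh20G000120 and CmoCh01G019160.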

How the data were processed

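The deposited table holds, per the file headers, whole-number counts and FPKM values for each gene and library, both made by the authors. The submitters' processing notes name HISAT and StringTie; versions, genome build and strand use in counting were not given in the sources used here. Another 6 value columns match no sample and were not used. The deposited count of 4 occurs 1350 times, against 567 for 3 and 516 for 5, so 1 read pair may be worth about 4 counts. Where the count is 0 the deposited FPKM is 0.0001, in 28770 places. Counts summed to 52300725 to 72356397 per library.

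Genes that reached FPKM 1 in 3 or more libraries (23509) entered edgeR 4.0.16 (R 4.3.3; glmQLFit and glmQLFTest, TMM factors, SCK and SR as groups), with Benjamini-Hochberg adjustment over all of them and a call at an adjusted p under 0.05. The SE of a log2 change is its size divided by the square root of F. Alternatives were no TMM factors, DESeq2 1.42.0, limma 3.58.1 on log2(FPKM + 1) and log2(FPKM + 0.1), no FPKM limit, a limit of 5, counts divided by 4, a replicate block and leaving out each library. Scripts were tested on simulated counts. Ratios between genes were tested by an exact two-sided permutation test, for which 3 against 3 cannot go below p = 0.1. Called members, the most abundant copy of each enzyme and role, and copies that differ in call were named. The members, the role lists, the marker lists and the ratios were chosen with earlier results of these data known.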

Additional observations from a re-analysis of the deposited data

How the results depend on the processing

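All 13 called members kept the sign of their log2 change under every alternative that was run. Leaving out 1 library gave 0 to 1 rises and 0 to 7 falls of members and a median of -0.195 to -0.0106 (the last without SCK replicate 1). It gave 0 to 1 falls in the early steps, 0 in siroheme synthesis, 0 to 5 in the magnesium branch, and 0 to 1 each in breakdown, among the other members and among the related genes outside the map. It gave 0 to 1 rises in the heme and bilin branch and 0 among the other members. Without SCK replicate 3, an alternative chosen after seeing the data, DESeq2 called 10 members lower and 1 higher, with 0 of either direction among the other members, and limma called 0 members in any role.

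Without TMM factors 7 of 84 members fell (8.33%), beside 4.91% of all tested genes. Siroheme synthesis and the other members had 0 falls. The other members had 2 rises (11.8% of 17), beside 11.1% of all tested genes, and the median of the members was 0.0102. DESeq2 gave 4 rises of members (4.76%), and 2 rises and 1 fall in the heme and bilin branch (18.2% and 9.09% of 11). It gave 2 rises and 2 falls among the other members (11.8% each) and 3 falls among the 13 tested related genes (23.1%). Of all tested genes DESeq2 called 13.0% higher and 12.7% lower. Limma on log2(FPKM + 1) and on log2(FPKM + 0.1) each gave 4 rises and 6 falls of members (4.76% and 7.14%, beside 10.1% and 4.63% of all tested genes for the first and 9.82% and 4.49% for the second), 1 rise and 0 falls in breakdown, 0 falls in siroheme synthesis, and 2 rises and 0 falls among the other members, with medians of 0.0139 and 0.0144. With no FPKM limit 1 of 91 tested members rose, beside 1469 of 29117 genes, and the other members had 0 calls. At an FPKM limit of 5 the other members had 2 rises among 11 tested (18.2%), beside 1582 of 17160 genes. The related genes had 0 falls there, since the GLK1-like gene was not tested. Counts divided by 4 left the numbers of rises and falls unchanged over the members, in every role and among the related genes. The cause of the shifts under the other alternatives was not tested.

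With the replicate number as a block, edgeR called 0 genes in every role and 0 of all tested genes, where 6564 genes and 19 members had an unadjusted p under 0.05. The samples share only a number: the deviations of same-numbered libraries correlated at -0.146, -0.249 and 0.0879, and SCK replicate 1 correlated best with SR replicate 2 (0.263). With 3 libraries per group, changes smaller than those called may go undetected.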
